A study of Mus musculus with 8 samples.

Results

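Tfcp2l1, Tbx3, Prdm14 and Zfp42 encode ancillary transcription factors of the naive pluripotent state, and their open chromatin was described here in mouse embryonic stem cells. The regions were all deposited ATAC-seq peaks that overlapped one of the 4 genes (RefSeq bounds, GRCm38) or lay within 100 kb of either end. This gave 87 of the 76996 peaks of the series, 19 around Tfcp2l1, 26 around Tbx3, 28 around Prdm14 and 14 around Zfp42, with no peak shared between genes. The cells were of the RHKI line, made from E14Tg2a with a knock-in of HA-tagged Rnaseh1, so that controls carried the knock-in too. The 4 control samples received no doxycycline and the 4 Dox samples 500 ng/ml for 48 h, and all grew in NDiff 227 medium with LIF, serum, the GSK3 inhibitor CHIR-99021 (3 µM) and the MEK inhibitor PD0325901 (1 µM). By its title the study asks how R-loops, whose RNA strand RNase H1 degrades, bear on H2A.Z and on the choice of lineage.

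The peak list was 1 list for all 8 samples, with a position for each peak and no height, read count or sample. Control and Dox samples were therefore not compared, sequencing depth is unknown, and no value below has a replicate error or a test. Each count is set instead against the same count over the 21774 protein-coding genes or over all peaks. As a check of the labelled cell type, the embryonic stem cell genes Pou5f1, Sox2 and Nanog all had a peak at a gene end (3 of 3), against 1 of 7 marker genes of primitive endoderm, trophectoderm and fibroblasts (Col1a1). Over all protein-coding genes the share with such a peak was 61.7%, so 3 of 3 alone tells little about the cell type. A gene end here is 1 kb on either side of the lower or the upper bound of a gene, by coordinate, because the gene table holds no strand.

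Naive embryonic stem cells are held in self-renewal by LIF acting through STAT3 and by inhibitors of MEK and GSK3. Around the core factors Pou5f1, Sox2 and Nanog acts a set of factors that stabilise the state and are lost as cells leave it. Tfcp2l1, of the CP2 and Grainyhead family, and the T-box factor Tbx3 act downstream of LIF signalling. Prdm14, a PR domain protein also needed in primordial germ cells, represses FGF signalling and the DNA methyltransferases. Zfp42, also called Rex1, is a zinc-finger protein of the YY1 family and is widely used as a marker of the naive state.

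Promoter sequence is shown where a peak could be laid over it base by base. RefSeq promoters of GRCm38.p6 run from 250 bases before a transcript start to 50 after it and were matched by symbol for 2 of the 4 genes, Tfcp2l1 and Zfp42. Also shown is the promoter of Tbx3os2, a long non-coding RNA gene whose lower bound lies 364 bp above Tbx3. Each promoter held 1 whole peak, and capitals mark the bases of the peak, 5′ to 3′ on the strand of the gene. The Tfcp2l1 promoter is chr1:118627695-118627994, plus strand, the Zfp42 promoter chr8:43306960-43307259, minus strand, and the Tbx3os2 promoter chr5:119691169-119691468, minus strand.
Tfcp2l1: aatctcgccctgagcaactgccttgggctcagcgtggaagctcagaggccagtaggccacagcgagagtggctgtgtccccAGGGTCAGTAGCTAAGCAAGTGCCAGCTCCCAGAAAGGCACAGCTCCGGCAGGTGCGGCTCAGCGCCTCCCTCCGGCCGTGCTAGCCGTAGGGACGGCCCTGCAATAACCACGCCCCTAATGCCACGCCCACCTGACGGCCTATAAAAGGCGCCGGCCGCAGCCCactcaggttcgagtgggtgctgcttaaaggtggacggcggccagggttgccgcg
Zfp42: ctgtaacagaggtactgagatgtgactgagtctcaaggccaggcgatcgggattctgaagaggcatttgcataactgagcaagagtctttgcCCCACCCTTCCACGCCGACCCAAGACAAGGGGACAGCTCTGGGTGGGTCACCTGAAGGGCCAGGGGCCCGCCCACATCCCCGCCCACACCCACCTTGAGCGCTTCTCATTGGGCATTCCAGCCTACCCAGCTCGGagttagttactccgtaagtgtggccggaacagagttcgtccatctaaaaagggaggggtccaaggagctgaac
Tbx3os2: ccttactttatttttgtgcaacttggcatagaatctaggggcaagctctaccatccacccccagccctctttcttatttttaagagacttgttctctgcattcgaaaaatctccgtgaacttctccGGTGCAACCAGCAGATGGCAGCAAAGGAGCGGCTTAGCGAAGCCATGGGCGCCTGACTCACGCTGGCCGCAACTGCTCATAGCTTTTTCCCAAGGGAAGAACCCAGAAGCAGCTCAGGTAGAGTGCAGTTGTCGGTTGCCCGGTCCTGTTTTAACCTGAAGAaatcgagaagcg

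The peak at Tfcp2l1 was 165 bp wide and ran from 169 to 5 bases before the transcript start. That at Zfp42 was 135 bp wide and ran from 158 to 24 bases before the start. At Tbx3os2 the peak, 162 bp wide, began 124 bases before the start and ended 37 bases after it. The first 2 peaks thus ended short of the start of the printed promoter and the last crossed it. At Tfcp2l1 that start is base 118627945, above the lower bound of the gene, 118627923, which lay inside the peak. Of all 32851 RefSeq promoter windows on the chromosomes, 37.8% were overlapped by a peak. The promoter of Tbx3os1, a non-coding RNA gene that overlaps the lower 975 bp of Tbx3, and that of Gm16064, which lies inside Tbx3os1, held no peak.

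The 3 promoters differed in base composition. The Tfcp2l1 window had a GC content of 65.3% and 21 CpG dinucleotides, close to the medians of promoter windows with a peak (62.0% and 21). The Zfp42 window had 57.7% and 11, and the Tbx3os2 window 50.7% and 12. These lay between the medians of all promoters, 52.7% and 7, and those with a peak, apart from the GC content of Tbx3os2, which was below both. Within the peak itself GC content was 66.7% at Tfcp2l1, 67.4% at Zfp42 and 56.8% at Tbx3os2.

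Motifs were searched by their exact letters on both strands. In the Tfcp2l1 peak a TATA box (TATAAA, in 13.6% of all promoter windows and 5.50% of those with a peak) lay 28 to 23 bases before the start. In the Zfp42 peak 2 GC boxes (GGGCGG, in 35.7% of all windows and 68.0% of those with a peak), the kind of site that SP and Kruppel-like factors read, lay 91 to 86 and 79 to 74 bases before the start, both on the opposite strand. The Zfp42 promoter also held ATGCAAA, the larger part of the octamer read by Pou5f1 and other POU factors (in 4.63% of all windows), on the opposite strand. The searched letters lay 185 to 179 bases before the start, outside the capitals of the peak. The Tfcp2l1 and Tbx3os2 windows held no GC box by these letters. Other letters that SP and Kruppel-like factors may read were not searched for. The nuclear receptor half-site AAGGTCA (4.72% of all windows), the STAT site TTCNNNGAA (8.30%), the T-box half-site AGGTGTG (5.84%) and the YY1 family core AAGATGG (6.34%) were not found in the 3 windows. None of these motifs overlapped another in the matches given.

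All 4 genes had a peak at an end, as did 61.7% of protein-coding genes. Tfcp2l1, Tbx3 and Prdm14 had it at 1 end and Zfp42 at both, where 9.21% of the protein-coding genes of at least 10 kb had peaks at both ends. The Tfcp2l1 peak crossed the lower bound, from 147 bp outside to 17 bp inside. At Tbx3 the peak began 97 bp inside the lower bound (chr5:119670631-119670866) and was 236 bp wide. At Prdm14 a peak of 243 bp crossed the upper bound (chr1:13127076-13127318), and a second of 227 bp began 852 bp outside it (chr1:13128015-13128241). Zfp42 had the promoter peak 24 bp outside its upper bound (chr8:43307033-43307167), a peak of 213 bp that began 779 bp inside the lower bound (chr8:43295846-43296058) and one of 154 bp that ended 623 bp outside it (chr8:43294291-43294444). With a window of 500 bp Zfp42 had a peak at the upper end alone, and with one of 5 kb all 4 genes had peaks at both ends.

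**Figure D1:**
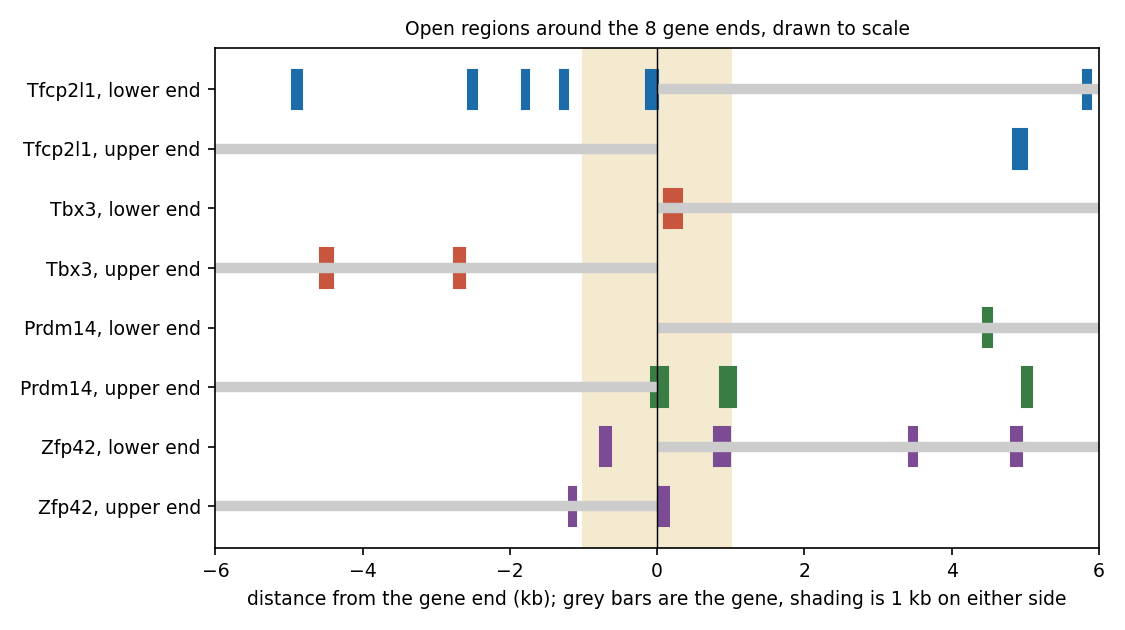
Peaks (coloured bars, drawn to scale) around the lower and upper end of each gene. The x axis is the distance from that end in kb, grey bars show the gene and the shading 1 kb on either side. Tfcp2l1 and Tbx3 have 1 peak in the shading at the lower end, Prdm14 has 2 at the upper end, and Zfp42 has peaks at both.

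Tfcp2l1 (chr1:118627923-118685168) was the longest of the 4 genes, 57.2 kb, and its open regions lay mostly over the gene and just below it. Of its 19 peaks 8 overlapped the gene, 5 lay below and 6 above. A count of 8 or more over the gene was found for 5.27% of protein-coding genes, and for 5.62% of the 819 genes within 0.9 to 1.1 times its length, a comparison chosen after the values were seen. A run of 5 peaks, in which no gap between neighbours exceeds 5 kb, ended on the promoter and covered 4.98 kb (chr1:118622958-118627940). Its 4 outer peaks, 107 to 147 bp wide, ended 4819, 2442, 1735 and 1204 bp below the gene.

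Inside Tfcp2l1 the widest of the 87 peaks, 450 bp, began 14838 bp above the lower bound (chr1:118642761-118643210). Only 1.55% of the whole list was as wide. It opened a run of 3 with peaks of 97 and 116 bp that began 17963 and 20181 bp above the bound. The other peaks over the gene lay singly and began 5789, 27390, 35425 and 46343 bp above the bound. The gene table holds no exons, so exon and intron were not told apart. Above the gene, a peak of 201 bp began 4832 bp outside the upper bound, followed by peaks 35598, 63639, 74513, 87264 and 91432 bp outside. Below the run at the promoter 93.5 kb held no peak, a stretch that takes in the upper part of Clasp1, which encodes a microtubule-binding protein. The 1 peak beyond it lay inside Clasp1, 98454 bp from Tfcp2l1.

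Tbx3 (chr5:119670534-119684724) had most of its peaks in the flanks, many of them in small groups. Of the 26 peaks 3 overlapped the gene, 13 lay below and 10 above. Per 100 kb this was 21.1 over the gene, which is 14.2 kb long, 13.0 below and 10.0 above. The 2 peaks deeper in the gene, of 185 and 148 bp, began 9609 and 11433 bp above the lower bound. A count of 3 or more over the gene was found for 27.2% of all protein-coding genes. Among the 1096 genes of like length (0.9 to 1.1 times) it was 17.5%, again a comparison chosen after the values were seen. Below the gene 3 runs of 4 peaks each lay 82.8 to 91.1 kb, 54.4 to 57.0 kb and 9.7 to 13.6 kb away. The middle run was the tightest, with 4 peaks in 2.59 kb (chr5:119613558-119616150), among them peaks of 214 and 201 bp. The remaining peak on this side stood alone, 35482 bp away.

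Non-coding RNA genes covered most of the lower side of Tbx3. Tbx3os1 (chr5:119611253-119671508) overlapped 10 of the 26 peaks, including the one at the lower end of Tbx3, and 3 of these also lay in Gm16064. AW549542 overlapped the 2 outermost peaks. Above the gene lay the peak in the Tbx3os2 promoter (chr5:119691181-119691342) and, 1237 bp beyond it, a peak of 119 bp (chr5:119692580-119692698). A further run of 4 peaks in 3.19 kb (chr5:119709890-119713082) began 25166 bp above the gene, and single peaks lay 18458, 35842, 56517 and 77509 bp above it. No other protein-coding gene reached into the Tbx3 window.

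Prdm14 (chr1:13113428-13127163) had the most peaks, 28, and the fewest over the gene, 2. Besides the peak across its upper bound, a peak of 121 bp began 4424 bp above the lower bound. As many over the gene or more were found for 43.5% of all protein-coding genes. Of the 1069 genes of like length (0.9 to 1.1 times), also compared after the values were seen, 40.8% had as many or more. The lower flank held 14 peaks and the upper flank 12. The longest run around any of the 4 genes lay 31.3 to 43.6 kb below Prdm14, with 6 peaks in 12.3 kb (chr1:13069793-13082081), each 103 to 138 bp wide. Of all peaks 3.16% lay in runs of 6 or more. A run of 3 peaks within 1.06 kb lay 17.7 to 18.7 kb below the gene (chr1:13094685-13095741), inside the non-coding RNA gene Gm39592, which overlapped 4 peaks in all. A pair near the edge of the window, 97415 and 97947 bp below the gene, and single peaks 86609, 61109 and 9251 bp below it made up the rest of this side.

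At the upper end of Prdm14 a run of 4 peaks in 7.47 kb (chr1:13127076-13134550) started with the peak across the bound. A second run of 4, in 4.00 kb (chr1:13142522-13146516), lay inside Ncoa2, a gene for a nuclear receptor coactivator whose lower bound is 11942 bp above Prdm14. Ncoa2 overlapped 9 of the 28 peaks, and position alone does not tell which of the genes, if any, these belong to. Ncoa2 had no peak at its lower end and 1 at its upper end, which lies outside the window. Between the run in Ncoa2 and the next peak 50.7 kb were free of peaks, the longest such stretch in the window. Beyond it lay 2 single peaks and a run of 3 in 3.91 kb, 88.6 to 92.5 kb above Prdm14.

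Zfp42 (chr8:43295067-43307009) had the fewest peaks, 14, of which 13 lay over the gene or within 50 kb of it. Over the gene lay 4 peaks, 2 lay below it and 8 above. A count of 4 or more over the gene was found for 17.6% of all protein-coding genes. Among the 1033 genes within 0.9 to 1.1 times its length the share was 4.45%, a comparison chosen after the values were seen. A run of 4 peaks in 5.74 kb (chr8:43294291-43300031) covered the lower end, and a pair (chr8:43305810-43307167) the upper end with the promoter peak printed above. Over the flank above the gene lay a pair of peaks 13475 and 13851 bp away and a run of 4 that began 21788 bp away and covered 9.98 kb (chr8:43328797-43338776). Single peaks lay 6833 bp below the gene and 86158 bp above it.

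Of the 14 Zfp42 peaks, 13 fell in 50.7 kb (chr8:43288120-43338776). Below this stretch 108 kb and above it 54.4 kb held no peak. No other gene of any kind overlapped a Zfp42 peak, and the pseudogene Gm2221 was the only other gene in the window. Of the peaks within 100 kb of Zfp42, 92.9% lay within 50 kb, against 73.7% at Tfcp2l1, 67.9% at Prdm14 and 61.5% at Tbx3. The median of this share over the 20173 protein-coding genes with a peak in the window was 60.0%.

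**Figure D2:**
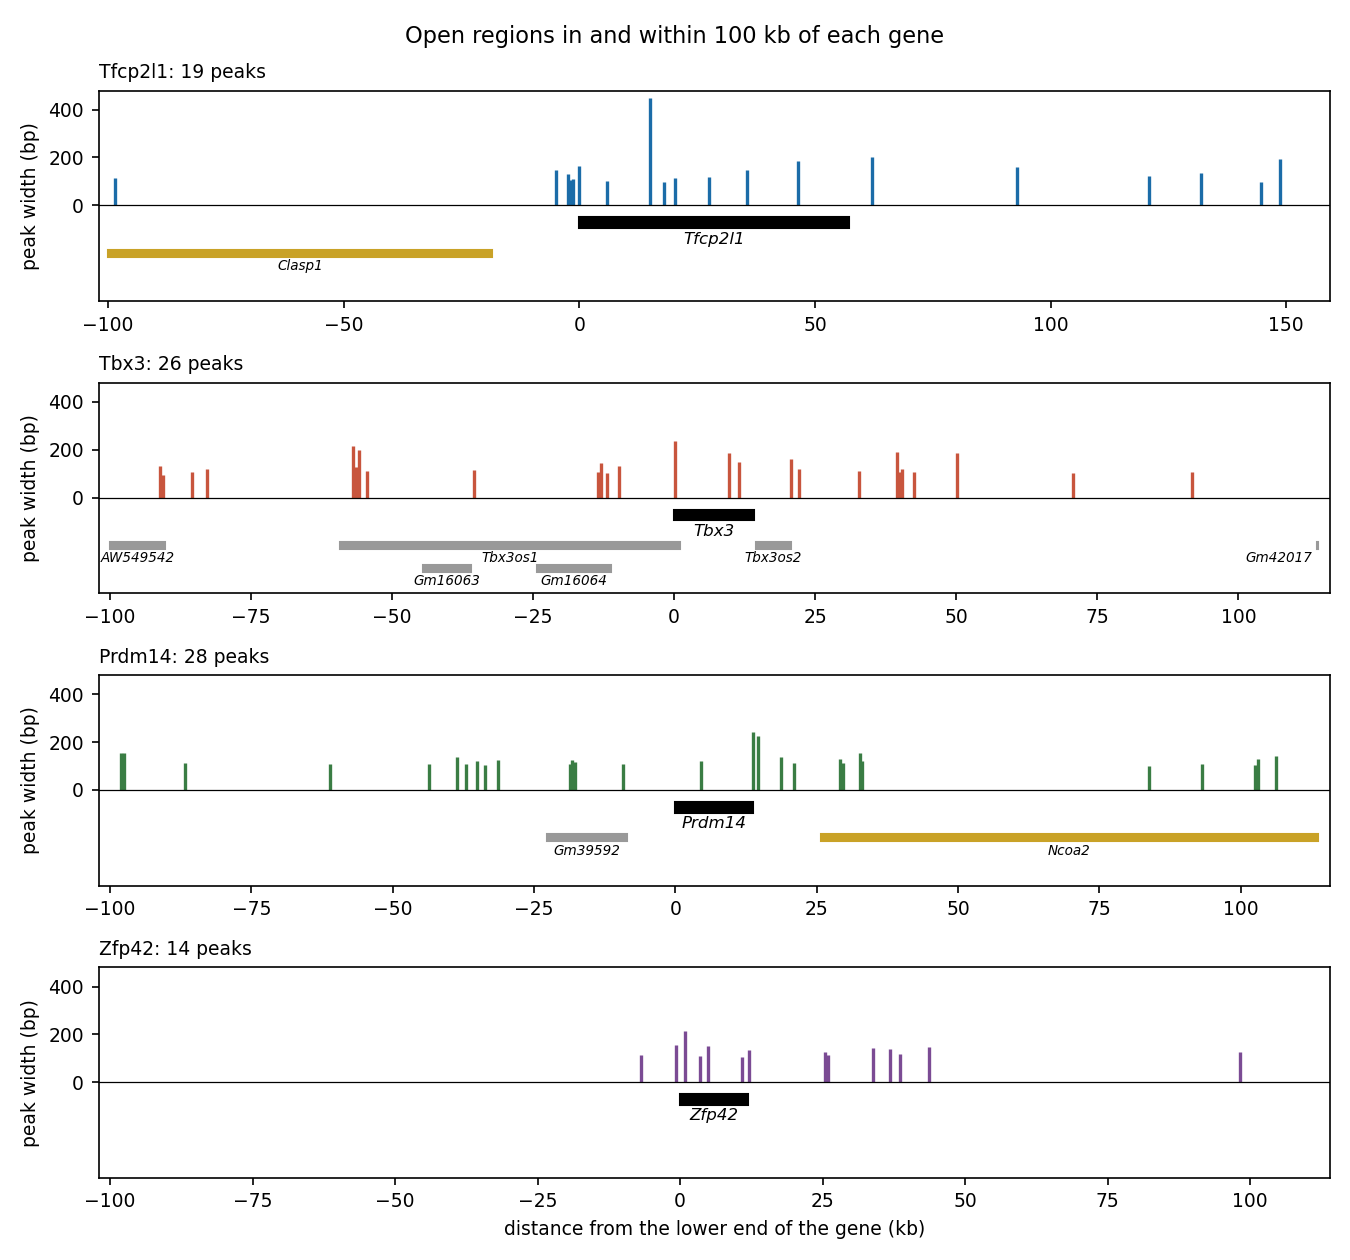
Peaks in and within 100 kb of each gene. The x axis is the distance from the lower end of the gene in kb, and each line is a peak whose height is its width in bp, not a signal. Black bars are the 4 genes, yellow bars other protein-coding genes and grey bars long non-coding RNA genes. The 450 bp peak stands out inside Tfcp2l1, and 13 of the 14 Zfp42 peaks lie over the gene or within 50 kb of it.

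Counted over the gene and 100 kb on either side, the 4 genes did not all stand high among protein-coding genes, which had a median of 13 peaks (quartiles 5 and 21). As many peaks as Prdm14 or more were found for 10.9% of genes, as many as Tbx3 for 14.3%, as many as Tfcp2l1 for 31.5% and as many as Zfp42 for 47.5%. Peaks per 100 kb of window were 13.1 at Prdm14, 12.1 at Tbx3, 7.39 at Tfcp2l1 and 6.61 at Zfp42, against 2.89 over the chromosomes and a median of 5.23 over gene windows. Counting distal peaks alone, whose centre was more than 1 kb away from any end of a protein-coding gene, gave shares of 3.10% of genes for Prdm14, 3.82% for Tbx3, 14.5% for Tfcp2l1 and 40.5% for Zfp42. Counting only peaks wider than the median of the list, the shares were 34.1% for Prdm14, 23.4% for Tbx3, 34.1% for Tfcp2l1 and 46.9% for Zfp42. Of the 87 peaks 92.0% were distal, against 78.1% of all peaks. By gene the share was 94.7% at Tfcp2l1, 96.2% at Tbx3, 92.9% at Prdm14 and 78.6% at Zfp42, the last near that of all peaks. Clasp1 and Ncoa2 were the only other protein-coding genes in the windows, so few gene ends lay there. What part this had in the distal shares was not tested. The shares of genes with as many peaks, of any width and place, also changed with the reach. With 200 kb on either side they were 27.9% for Prdm14, 38.4% for Tbx3, 48.3% for Tfcp2l1 and 66.6% for Zfp42. With 50 kb they were 6.97%, 14.0%, 21.1% and 24.9% in the same order.

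**Figure D3:**
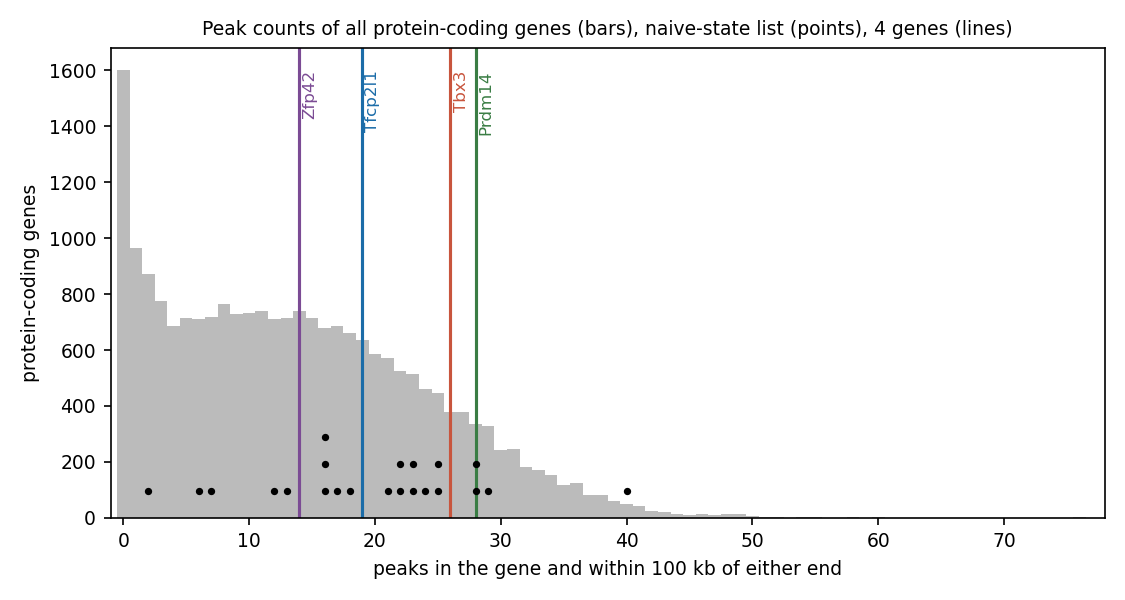
Number of peaks in the gene and within 100 kb of either end (x axis) for all 21774 protein-coding genes (grey bars, y axis number of genes). Lines mark the 4 genes at 14, 19, 26 and 28 peaks, and points, stacked where equal, the 22 other naive-state genes. At this reach 47.5% of genes lie at or above Zfp42 and 10.9% at or above Prdm14.

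By distance, the genes differed in where their peaks were dense. Within 10 kb outside the ends, by peak centre, Tfcp2l1 had 6 peaks, Prdm14 5, and Tbx3 and Zfp42 3 each, where the mean over protein-coding genes was 1.57. From 10 to 25 kb Prdm14 had 7, Tbx3 and Zfp42 had 4 each and Tfcp2l1 had 0, beside a mean of 1.83. From 25 to 50 kb Tbx3 and Prdm14 had 6 each, Zfp42 2 and Tfcp2l1 1, beside 2.90. From 50 to 100 kb Tbx3 had 10, Prdm14 9, Tfcp2l1 5 and Zfp42 1, beside 5.56. Tbx3 and Prdm14 were above the mean in all 4 distance classes, Tfcp2l1 in the nearest one alone and Zfp42 in the nearest 2.

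**Figure D4:**
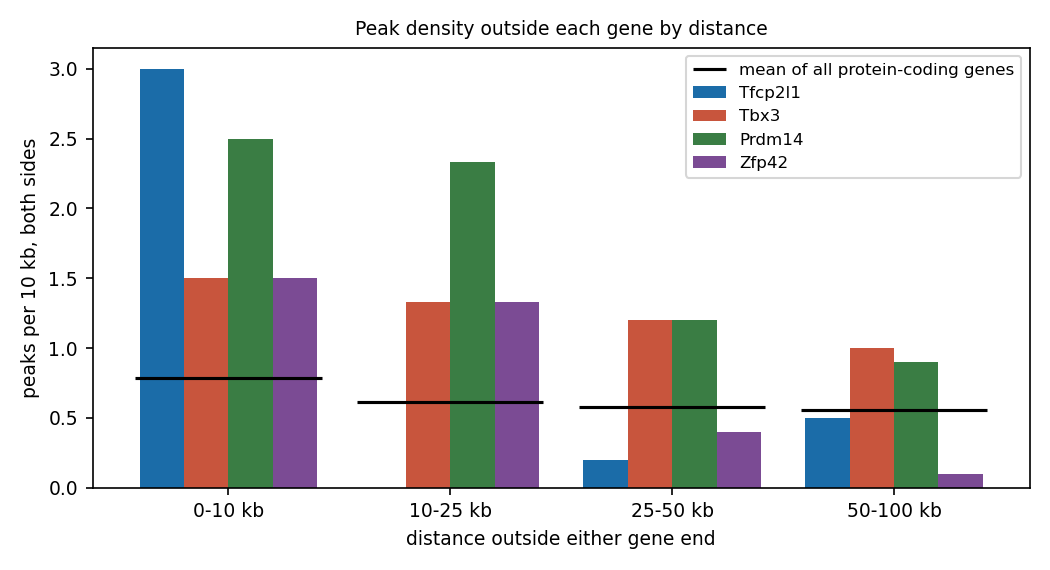
Peaks per 10 kb outside the gene (y axis, both sides together) by distance from the nearer gene end (x axis), for each gene (bars) and as the mean of all protein-coding genes (black lines). The bars of Tbx3 and Prdm14 stay above the lines out to 100 kb, while Tfcp2l1 is at 3.00, 0, 0.200 and 0.500 over the 4 classes and Zfp42 at 0.100 in the last.

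Peaks around the 4 genes lay in runs more often than peaks of the list as a whole, but close pairs were frequent at Tbx3 and Prdm14 alone among them. Of the 87 peaks 52 (59.8%) belonged to runs of at least 3, against 25.5% of all peaks, and the share was 71.4% at Prdm14, 61.5% at Tbx3, 57.1% at Zfp42 and 42.1% at Tfcp2l1. The median gap from a peak to the next one above it, inside or outside the window, was 3418 bp at Prdm14, 3727 bp at Tbx3, 3840 bp at Zfp42 and 7915 bp at Tfcp2l1, against 9636 bp over the list. A neighbour within 1 kb was found for 24.1% of all peaks. The share was above this for Prdm14 (13 of 28, 46.4%) and Tbx3 (11 of 26, 42.3%) and below it for Tfcp2l1 (3 of 19, 15.8%) and Zfp42 (2 of 14, 14.3%). Such runs were not rare around genes. Over all protein-coding genes the longest run in the same window had a median of 3 peaks. A run as long as the longest one of Prdm14 (6 peaks) lay around 8.85% of protein-coding genes, as long as that of Tfcp2l1 (5 peaks) around 16.9%, and as long as those of Tbx3 and Zfp42 (4 peaks each) around 30.9%.

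The peaks were not wide. Their median was 123 bp against 130 bp for the list, and 8 of 87 (9.20%) were over 200 bp, as were 9.21% of all peaks. Wider than the list's median were 36 of 87 (41.4%), against 49.8% of all peaks. Of these 8, those at Tbx3 (236 bp), Prdm14 (243 and 227 bp) and Zfp42 (213 bp) lay at gene ends. The rest were the 450 bp and 201 bp peaks of Tfcp2l1 and the peaks of 214 and 201 bp in Tbx3os1. The Tfcp2l1 and Zfp42 promoter peaks, at 165 and 135 bp, were not among them.

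Beside 22 other genes of the naive state, the 4 genes were spread from the upper to the lower range. More peaks than Prdm14 were found for 2 of the 22, more than Tbx3 for 4, more than Tfcp2l1 for 12 and more than Zfp42 for 17. The 22 genes had a median of 21.5 peaks in the same window (2 to 40), the 4 genes a median of 22.5. Nanog, a core factor, had the most with 40, followed by Pou5f1 with 29 and, with 28 each, the FGF ligand gene Fgf4 and the 5-methylcytosine dioxygenase gene Tet1. Fewest were found at Nr0b1 on chromosome X (2), which encodes the nuclear receptor Dax1, and at the neighbours Dppa4 (6) and Dppa2 (7). At least 28 peaks, the 90th percentile of all genes, were found for 4 of the 22 and for Prdm14 among the 4, where 10.9% of all genes reached it. A peak at an end was found for 17 of the 22, where the share over all protein-coding genes was 61.7%. Nanog, Dppa3 and Gdf3 share part of their windows, as do Dppa2 and Dppa4, so these counts are not independent.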

How the data were processed

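ATAC-seq libraries came from 4 control and 4 Dox samples, grouped by their titles. The labels do not tell whether replicates were grown apart. The build was GRCm38, and the tools named in the submitters' processing notes are deepTools 3.5.1, HOMER 4.11, Bowtie2 2.5.0, Trimmomatic 0.39, SAMtools 1.16.1 and Picard 2.10.9. Which tool called the peaks, at what threshold and over which samples is not given in the sources used here. That list, as deposited, has 3 columns, chromosome, start (counted from 0, printed from 1) and end, with 0 columns of values per sample. The planned test of Dox against control for a file with counts was therefore not run.

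Gene bounds are those of RefSeq for GRCm38.p6. Of 21900 protein-coding genes 126 on scaffolds, patches or the mitochondrial genome were left out. A peak counted when it overlapped a window by 1 bp, and gene ends took 1 kb on either side. Runs joined peaks with gaps of at most 5 kb. The genes named are the 4 members, protein-coding genes that reach into their windows, and the naive-state genes with the 3 highest (4 with a tie) and 3 lowest counts. Non-coding genes and other peaks were named after their values were seen. The members and lists were chosen with earlier results of these data known. The counting was tested on simulated data. Python 3.11.15, NumPy 2.4.6, pandas 2.3.3 and matplotlib 3.10.9 were used.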

Additional observations from a re-analysis of the deposited data

How the results depend on the processing

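No paired analysis was possible because the peak list carries no value per sample, and for the same reason no replicate could be left out. Of 66 planned values under other settings, 41 stayed within 1.5 times the reported one and 25 did not. With peaks wider than the median of 130 bp the counts were 9 at Tfcp2l1, 11 at Tbx3, 9 at Prdm14 and 7 at Zfp42. Fewer peaks are counted by design, and the median over all protein-coding genes fell too, from 13 to 6. The median of the naive-state list was 9.5, and the share of genes with as many peaks was 23.4% for Tbx3 and 34.1% for Prdm14. With 50 kb on either side Tbx3 had 16 peaks, the list a median of 14 and all protein-coding genes a median of 7. The share was then 6.97% for Prdm14 and 24.9% for Zfp42. With 200 kb it was 48.3% for Tfcp2l1, 38.4% for Tbx3 and 27.9% for Prdm14. With distal peaks it was 14.5%, 3.82% and 3.10% for the same genes, and against genes of its own chromosome 3.97% for Prdm14. With end windows of 5 kb Tfcp2l1, Tbx3 and Prdm14 had peaks at 2 ends, and with 500 bp Zfp42 at 1. With gaps of up to 10 kb the longest run held 11 peaks at Tfcp2l1, 9 at Tbx3 and 7 at Zfp42. The causes were not tested. Peak centres, gaps of 3 kb and peaks per 100 kb moved no value by over 1.5 times. Threshold and depth are unknown, so a missing peak does not show closed chromatin.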

Other observations

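Some values lie beyond the windows. Above the last peak of the Zfp42 window the next peak of the list was 202 kb away, and above that of Tfcp2l1 it was 128 kb away. The corresponding gaps were 82.8 kb above the Tbx3 window's last peak and 33.8 kb above that of Prdm14. Clasp1, the neighbour below Tfcp2l1, had 10 peaks over the whole gene, 3 at its lower end, which lies outside the window, and 0 at the end that faces Tfcp2l1. Of the 15 peaks over Ncoa2, 9 lay within 100 kb of Prdm14.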
